A study of Mus musculus with 5 samples.

Results

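The genes described here are those of the cytosolic ribosomal proteins, chosen by name alone: every gene of the count tables whose symbol is Rpl or Rps followed by digits and at most 1 of the letters a, l, x or y, with names ending in -ps (pseudogene copies) left out. The rule took 77 of 27998 genes, 47 of the large subunit (Rpl) and 30 of the small subunit (Rps). It left out ribosome components named otherwise, among them Rplp0, Rplp1, Rplp2, Rpsa, Rps3a1, Fau and Rack1, which are described as a separate list of 12. All 77 had at least 1 UMI (a molecule counted once by its unique molecular identifier), and together they held 24.5% of the UMIs of the cells kept.

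Every cytosolic ribosome carries 1 copy of nearly every ribosomal protein, and the proteins are assembled on ribosomal RNA in the nucleolus, so their genes are usually produced in balance. Their mRNAs are known for a 5′ terminal oligopyrimidine tract (TOP), a C at the start followed by further C or T bases, through which mTOR signalling and the RNA-binding protein LARP1 control translation. In B-lymphocyte development the supply of ribosomal proteins is known to matter: pro-B and large pre-B cells divide fast, while small pre-B cells leave the cell cycle and rearrange the light chain genes. A few members are paralogs of another: Rpl3l and Rpl10l are known from striated muscle and testis, Rpl39l from male germ cells, and Rps27l is a target of the tumour suppressor p53.

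The samples were 5 droplet libraries of bone marrow cells sorted as CD45-CD31+ from endosteal preparations of Nes-GFP mice (a strain named for a green fluorescent protein reporter of nestin), frozen, thawed and counted from the 3′ end of the mRNA. Young mice were 10 to 12 weeks old (replicates 1, 2 and 3) and aged mice over 20 months (replicates 2 and 3). The labels name no treatment, and do not say whether a replicate is 1 animal or a pool, so p-values measure the spread between these libraries. The sort was for endothelial cells, yet of 2116 cells kept only 15 carried an endothelial profile and 1905 were B-lineage: the 15 endothelial markers summed to 29478 CPM (counts per 1000000 UMIs of the summed cells) in the endothelial-like cells and to 284 and 201 in the pro-B-like and pre-B-like cells.

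Cells were grouped with all member genes left out of the clustering, so that the groups could be compared for these genes. Copies with -ps names and the components Rplp0, Rplp1, Rplp2, Rpsa and Rps3a1 were left out too. Fau, Rack1, some copies under other names and the genes of ribosome biogenesis and translation were not. Their values could therefore shape the groups. The non-dividing B-lineage cells (1192) were pro-B-like (246, led by Dntt, Vpreb1 and Igll1), pre-B-like (695, led by Cd2 and Ly6d) and immature-B-like (251, led by Ms4a1, Cd74 and H2-Aa). The dividing ones (713) were in S phase (323 and a further 152 led by Nrgn and Mif) or in G2/M (238). Depth differed: the kept cells held a median of 4213 UMIs in young replicate 1 and 1890 to 2867 in the other libraries. Young replicate 1 stood apart in other ways too, giving 585 of the 713 dividing and 65 of the 69 monocyte-like cells but 120 of the 1192 non-dividing B-lineage cells, and 5 barcodes occurred in more than 1 library. A level below is in CPM over the summed cells of a class, and values for each library are in the order young replicates 1, 2 and 3, then aged replicates 2 and 3.

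RefSeq start windows were found for 57 of the 77 members. A C at the annotated start followed by at least 4 bases that are each C or T, read on the gene's own strand only, was present in 12 of the 57 (21.1%) and in 813 of 27025 genes in all (3.01%). A run of 7 or more C and T bases within 5 bases of the start, which can overlap the first pattern, was present in 27 of the 57 (47.4%) against 16.4% of all genes. The windows below (15 bases before the start and 15 from it, GRCm38.p6) are shown for some of the members that moved apart from each other in the comparisons that follow. Capitals mark the longest run of C and T next to the start.
Rps27 (chr3:90213634-90213663, minus strand): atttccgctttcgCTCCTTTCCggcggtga
Rps27l (chr9:66946071-66946100, plus strand): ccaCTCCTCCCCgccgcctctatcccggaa
Rpl14 (chr9:120571502-120571531, plus strand): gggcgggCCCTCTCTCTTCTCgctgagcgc
Rps12 (chr10:23787195-23787224, minus strand): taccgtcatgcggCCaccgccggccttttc
Rpl15 (chr14:18270972-18271001, minus strand): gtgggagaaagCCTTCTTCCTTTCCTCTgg
Rps24 (chr14:24490663-24490692, plus strand): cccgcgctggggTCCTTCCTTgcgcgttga
Rpl28 (chr7:4792950-4792979, plus strand): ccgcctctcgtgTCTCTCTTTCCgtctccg
The pattern at the start was present in Rps27, Rpl14, Rpl15 and Rpl28, which did not move in 1 direction together in what follows. Rps27l and Rps24 each have another annotated start, and Rps2 has a window as well. These are not shown and lack the pattern. RefSeq starts need not be the starts used in these cells, and a missing match says only that these letters are not at this position.

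In non-dividing B-lineage cells 72 of the 77 members averaged at least 1000 CPM over the 5 libraries. The highest was Rps27, a small-subunit protein with a zinc finger (7407 ± 1322, SD, n = 5), and among the next highest were Rpl13a (5506 ± 432), Rpl41 (5212 ± 561) and Rps19 (4934 ± 685), the gene most often mutated in Diamond-Blackfan anaemia. The last 3 did not differ beyond their SDs. The lowest of the 75 members with enough counts for a test were Rpl3l (76.7 ± 32.0), Rps27l (219 ± 70.0), Rpl5 (999 ± 105), Rpl22 (1074 ± 276) and Rps21 (1082 ± 143). Rpl10l and Rpl39l had 7 and 4 UMIs in all kept cells and were tested nowhere. Levels of different genes are compared with care: 3′ counting does not scale with length, and reads of a gene with near-identical copies, such as Rpl6 and Rpl6l (annotated as a processed pseudogene on chromosome 10), can be split between them or lost. Rps4x, the X-linked form of Rps4, stood at 3768, 2757, 2903, 2796 and 2893 CPM, highest in young replicate 1.

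The members' summed share of UMIs varied with the phase of the cell cycle. Among cycling cells it was highest in the Nrgn-high S-phase cells (31.1%, 24.6%, 21.3%, 21.7% and 26.5%), lower in the other S-phase cells (23.6%, 19.8%, 16.2%, 17.0% and 19.6%) and lowest in G2/M cells (19.7%, 15.9%, 15.1%, 14.7% and 16.0%). This order held within each of the 5 libraries, although the groups overlapped between libraries. The Nrgn-high cells exceeded the other S-phase cells by 5.80 ± 1.31 percentage points (SD, n = 5) and G2/M cells differed from them by -2.95 ± 1.19 points; the exact sign-flip permutation p was 0.0625 for each, two-sided, which is the smallest that 5 libraries allow (0.146 adjusted over 7 comparisons of the share). At like depth the first gap was smaller: in young replicate 1, the library with enough cells, Nrgn-high and other S-phase cells held 24.9% and 21.4% at 2000 to 4000 UMIs, 27.9% and 24.2% at 4000 to 8000, and 31.9% and 29.4% at 8000 and over. G2/M cells held 15.8%, 20.6% and 26.0% in the same ranges. The share was taken from as few as 4 G2/M and 5 S-phase cells in 1 library.

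**Figure D1:**
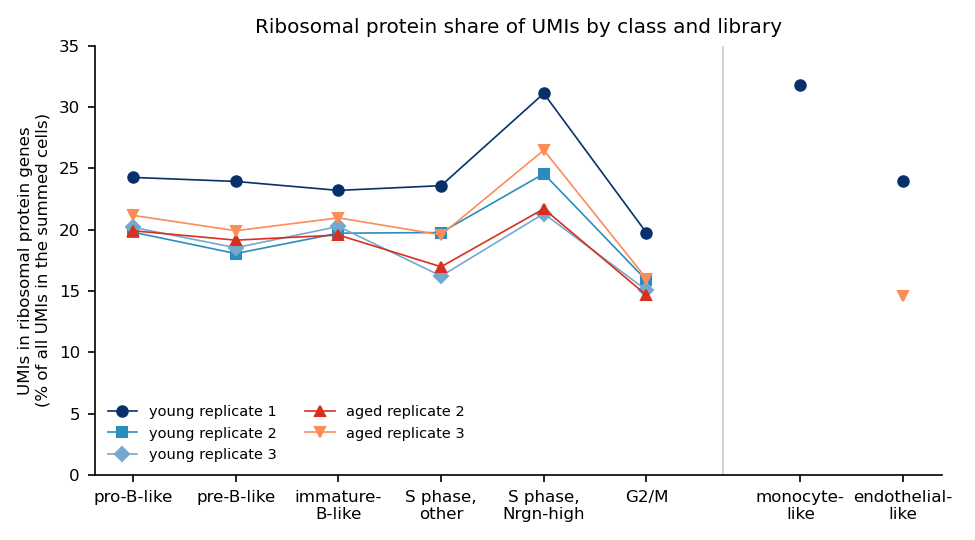
Share of all UMIs in the 77 ribosomal protein genes (y axis, percent) for each class of cells (x axis), with 1 point per library and lines joining the B-lineage classes of a library; classes under 5 cells are left out for the monocyte-like and endothelial-like groups. Each of the 5 lines peaks at the Nrgn-high S-phase cells and falls to its lowest B-lineage value at G2/M, and young replicate 1 is the highest in every class.

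Non-dividing stages differed less. Pro-B-like cells held 24.3%, 19.8%, 20.2%, 19.9% and 21.2% of their UMIs in members, pre-B-like cells 23.9%, 18.0%, 18.5%, 19.1% and 19.9%, and immature-B-like cells 23.2%, 19.7%, 20.3%, 19.6% and 21.0%. Pre-B-like cells were lower than pro-B-like cells in 5 of 5 libraries, by 1.15 ± 0.60 points (exact sign-flip permutation p = 0.0625, the smallest possible, adjusted 0.146). Immature-B-like cells were above pre-B-like cells in 4 of 5 (0.83 ± 1.02 points, exact permutation p = 0.188). The share also varied with the UMIs of a cell. Over all libraries it was 15.9% in pro-B-like cells of 1000 to 2000 UMIs, 20.6% at 2000 to 4000 and 22.2% at 4000 to 8000. In the same ranges it was 18.1%, 19.7% and 19.7% in pre-B-like cells and 18.8%, 21.6% and 20.1% in immature-B-like cells. These ranges mix the libraries in unequal numbers. The median depth of pre-B-like cells was below that of pro-B-like cells in 5 of 5 libraries, and among cells of 2000 to 4000 UMIs the mean difference between these stages was 0.31 points over the 4 libraries with at least 5 such cells of each stage, with young replicate 2 left out. It was below 0 in young replicate 1 (-0.14) and aged replicate 2 (-0.33) and above 0 in young replicate 3 (0.83) and aged replicate 3 (0.88).

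The balance of Rpl and Rps mRNA counts moved from pro-B-like to pre-B-like cells within each of these libraries. The ratio of Rpl to Rps UMIs was 1.16, 1.25, 1.25, 1.24 and 1.24 in pro-B-like cells and 1.23, 1.32, 1.34, 1.31 and 1.31 in pre-B-like cells, a rise of 0.072 ± 0.010 (SD, n = 5) with the same direction in 5 of 5 libraries. Its exact sign-flip permutation p was 0.0625, the smallest possible (0.438 adjusted over 7 comparisons of the ratio). The ratio was not compared at like depth. From pre-B-like to immature-B-like cells the ratio moved by -0.0046 ± 0.015, and between dividing and non-dividing cells by -0.0094 ± 0.012, neither beyond the spread between libraries.

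Dividing and non-dividing B-lineage cells differed in which ribosomal protein mRNAs they held. In the summed counts, 32 of 75 members tested were higher in dividing cells and 4 lower (edgeR quasi-likelihood test with library as a block, adjusted p under 0.05 over 5338 genes), beside 25.6% of all genes called higher and 23.5% called lower (49.1% in all). The members' median log2 fold change was 0.14, against -0.03 for all genes. How many rose depended on how cells were weighted. With each cell thinned to 1000 UMIs, 8 were higher and 16 lower with a median of -0.04, and with library totals as the scale, which moves the median of all genes to -0.13, 22 were higher and 11 lower.

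The 5 members that rose most did so under each of the alternatives tried. Rps2, a protein at the mRNA entry side of the small subunit, stood at 1903, 1359, 1497, 1424 and 1401 CPM in non-dividing cells and at 3543, 2880, 2228, 2326 and 2860 in dividing ones, without overlap, and its log2 fold change was 0.96 ± 0.09 (SE; edgeR adjusted p = 5.6e-09). These Rps2 levels pool the dividing classes, the Nrgn-high cells among them. In the other S-phase cells alone Rps2 held 2586, 1686, 1699, 1365 and 1745 CPM. Those values overlap the non-dividing cells and lie below them in aged replicate 2. In G2/M cells Rps2 was below the non-dividing level in young replicate 1 and above it in young replicate 2. Rps27l went from 334, 146, 216, 190 and 207 to 650, 324, 390, 285 and 329 (0.95 ± 0.12). Each library rose, but the ranges overlap because young replicate 1 was high in both classes. Rpl14, of the large subunit, rose by 0.80 ± 0.09, Rpl36a by 0.72 ± 0.09 and Rps12 by 0.67 ± 0.10, each in 5 of 5 libraries. In the cells thinned to 1000 UMIs these 5 had log2 fold changes of 0.53, 0.73, 0.54, 0.46 and 0.43 and passed the test. In the other S-phase cells alone, without thinning, Rpl36a held 2565, 1563, 1114, 890 and 1702 CPM. Rps12 held 3272, 1912, 899, 1721 and 1861 there. The lowest non-dividing values were 1018 for Rpl36a and 1157 for Rps12, so Rpl36a was lower in aged replicate 2 and Rps12 in young replicate 3. Rpl14 held at least 1727 CPM there, above its highest non-dividing value of 1715.

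Rps27 went the other way. The member highest in resting cells, it held 5270, 7460, 7595, 7812 and 8897 CPM there and 3787, 4851, 4921, 5231 and 6222 in dividing cells, lower in 5 of 5 libraries (log2 fold change -0.47 ± 0.07, edgeR adjusted p = 4.8e-06, and -0.62 when thinned). Rps27l and Rps27 encode closely similar proteins, and the share of Rps27l in the pair's UMIs moved from 5.96%, 1.92%, 2.77%, 2.37% and 2.28% in non-dividing cells to 14.7%, 6.25%, 7.34%, 5.17% and 5.02% in dividing ones. It was higher in dividing cells within each of the 5 libraries, and the classes overlapped only through the non-dividing cells of young replicate 1. Rpl34 (-0.22 ± 0.08) and Rps9 (-0.22 ± 0.07) also fell, but with DESeq2 their adjusted p-values were 0.054 and 0.054. Rpl3l fell by 2.39 ± 0.31 on the log2 scale and is described with the paralogs.

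**Figure D2:**
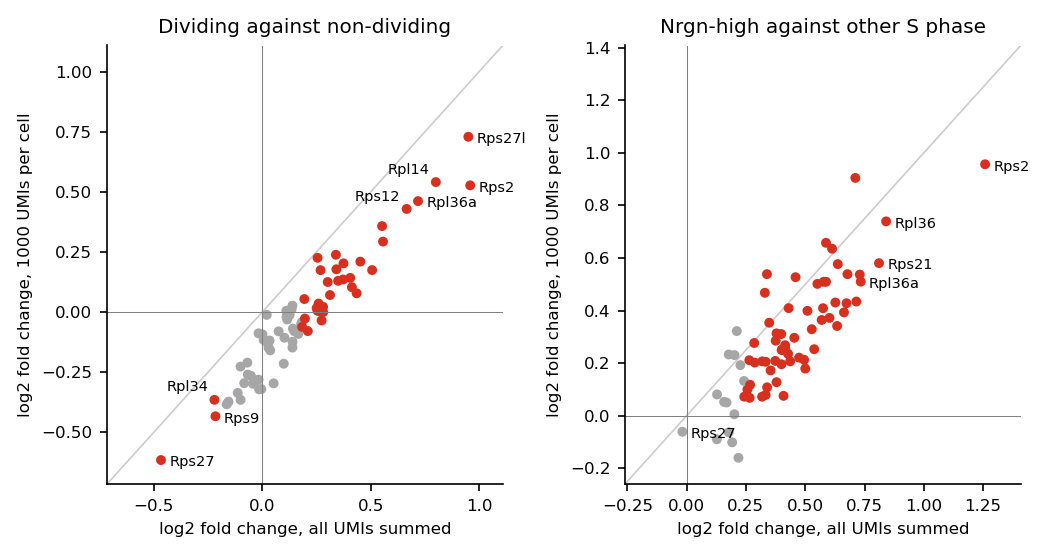
Log2 fold change of each member with all UMIs summed (x axis) against that with each cell thinned to 1000 UMIs (y axis), for dividing against non-dividing cells (left) and Nrgn-high against other S-phase cells (right); red points passed adjusted p 0.05 with all UMIs, the grey diagonal marks equal values, and Rpl3l is not drawn. On the left all 74 members lie below the diagonal while Rps2, Rps27l and Rpl14 stay at the top and Rps27 at the bottom.

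Across the 74 members tested both ways the 2 sets of fold changes kept nearly the same order (Spearman rho 0.93 over genes that share cells and libraries), and every value was lower when thinned. All 8 members called higher and 3 of the 16 called lower after thinning were called the same way in the full sums, and none changed from higher to lower. The share of UMIs showed the same dependence. Dividing cells held 25.2%, 20.5%, 17.8%, 20.3% and 21.6% in members and non-dividing cells 23.6%, 18.9%, 19.4%, 19.4% and 20.5%, a difference of 0.72 ± 1.33 points (higher in 4 of 5 libraries, exact permutation p = 0.313). As the median over cells the difference was -1.04 points. In cells of 2000 to 4000 UMIs of young replicate 1, it was 19.3% in 270 dividing cells against 23.6% in 114 non-dividing cells.

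Other genes of ribosome production were counted in the same test of dividing cells, in which 25.6% of all genes rose and 23.5% fell. Most of them, unlike the members, were not left out of the clustering, so their calls are not independent of the classes. Of 42 ribosome biogenesis genes 30 were tested, 19 rose and 0 fell (median 0.63), led by Npm1, a nucleolar histone chaperone (0.91 ± 0.09), Nop10 (1.26 ± 0.13) and Nop58 (1.71 ± 0.18), parts of the small nucleolar ribonucleoproteins. Of 38 translation factors 17 rose and 3 fell, with Eif4a1, an RNA helicase of initiation, at 1.13 ± 0.11. Among the 12 ribosome components outside the name rule 6 rose and 2 fell, with Rpsa at 1.00 ± 0.09 and Rplp1 at 0.76 ± 0.08. Of 75 mitochondrial ribosomal protein genes tested 28 rose and 2 fell, led by Mrpl18 (1.64 ± 0.16). Of 15 regulators of ribosomal protein output tested 3 rose and 3 fell, shares below those of all genes; Rheb, the GTPase that activates mTOR, was at 0.92 ± 0.14 and Rragc, which recruits mTOR to the lysosome, at -1.41 ± 0.21.

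Within dividing cells, Nrgn-high S-phase cells were compared with the other S-phase cells, a comparison added after the data had been seen. They were larger in UMIs (medians of 10519, 18186, 4946, 7537 and 6728 per cell against 3729, 7067, 3026, 1755 and 3818), and 60 of 74 members were higher and 0 lower, beside 20.4% of all 1164 genes called higher and 21.0% lower (41.4% in all). The median log2 fold change was 0.40, and 0.25 with cells thinned to 1000 UMIs, where 14 members passed. Rps2 again moved most, from 2586, 1686, 1699, 1365 and 1745 CPM to 5867, 4337, 3465, 2591 and 4892 (1.26 ± 0.10, edgeR adjusted p = 5.3e-13). Rpl36 rose by 0.84 ± 0.11, Rps21 by 0.81 ± 0.13 and Rpl36a by 0.73 ± 0.11, each in 5 of 5 libraries; thinned, Rpl36a (0.51) no longer passed.

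Rps27l rose by 0.81 ± 0.17 between these cells, a value that rested on young replicate 1: it was 508 and 1006 CPM there, and without that library the log2 fold change was 0.40 with an adjusted p of 0.32. Rps27 was the only member with a value below 0 (-0.02 ± 0.09, adjusted p = 0.90), and its sign turned with the scaling. Of 9 ribosome biogenesis genes tested 6 rose and 0 fell, with Npm1 at 1.30 ± 0.13, Fbl, the methyltransferase of ribosomal RNA, at 1.31 ± 0.19 and Ncl at 1.02 ± 0.15. These genes were not left out of the clustering that split the cells, so their calls are not independent of the split.

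In G2/M nearly the whole family was lower. Against all S-phase cells of the same libraries, 73 of 74 members fell and 0 rose, beside 5.68% of 5902 genes called lower and 3.56% higher (9.23% in all), with a median log2 fold change of -0.72 against 0.01 for all genes. Only young replicates 1 and 2 had 10 or more G2/M cells, so the test rests on 2 libraries and 1 residual degree of freedom. Rps2 fell from 4264 and 3515 CPM to 1790 and 1741 (-1.35 ± 0.10, edgeR adjusted p = 0.00012). Rps27l (-1.21 ± 0.16), Rpl14 (-1.03 ± 0.10), Rpl12 (-1.01 ± 0.11) and Rpl7a (-0.96 ± 0.11) followed. The S-phase side of this test includes the Nrgn-high cells. In the other S-phase cells alone Rps2 held 2586 and 1686 CPM. The G2/M level of Rps2 is below that in young replicate 1 and slightly above it in young replicate 2. Thinned to 1000 UMIs, Rps27l (-0.63, adjusted p = 0.23) and Rpl12 (-0.56, adjusted p = 0.090) no longer passed. The members named here as lower in G2/M include 3 of the 5 that rose most in the whole set of dividing cells.

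Rps27 did not pass in G2/M (-0.28 ± 0.08, adjusted p = 0.062), from 3846 and 4956 CPM in S phase to 3642 and 4662. Relative to the summed members it was higher in G2/M by 0.42, the largest such value of the 74. Thinning to 1000 UMIs left 30 members called lower, with a median of -0.51. Ribosome biogenesis genes fell too, 12 of 31 tested and 0 higher, with Npm1 at -1.64 ± 0.12, as did 9 of 38 translation factors and 8 of the 12 components outside the name rule. The biogenesis genes and translation factors were not left out of the clustering.

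**Figure D3:**
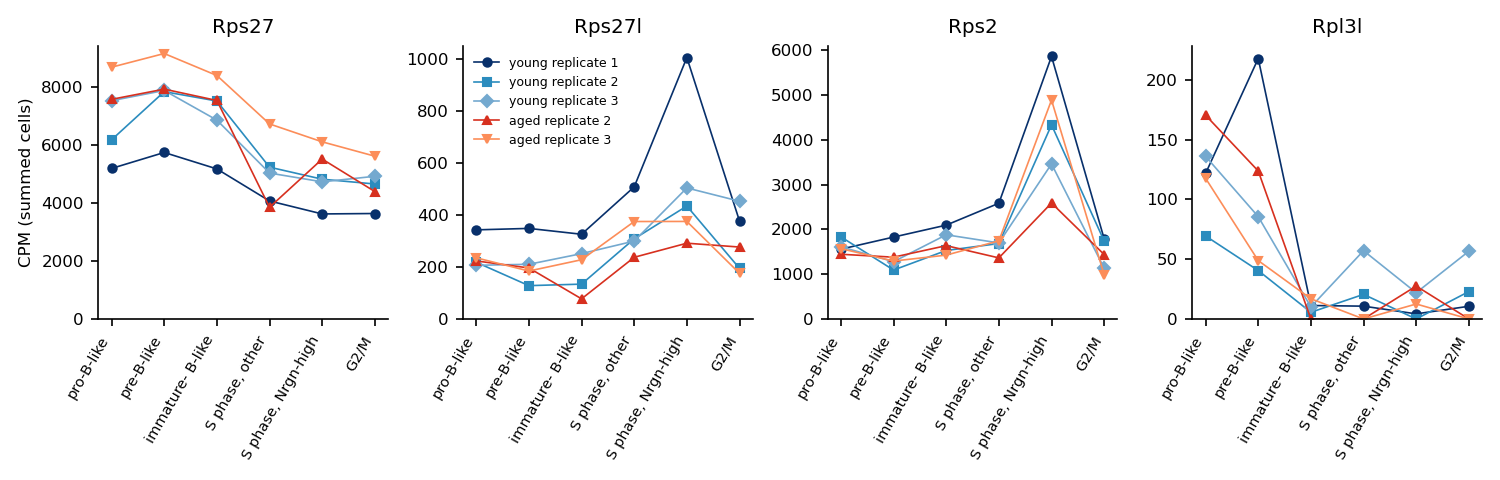
Level of Rps27, Rps27l, Rps2 and Rpl3l (y axes, CPM in the summed cells, each from 0) in 6 B-lineage classes (x axis), with 1 line per library. Rps2 peaks in the Nrgn-high S-phase cells in each library, Rps27 is lower in the 3 dividing classes than in the resting ones, and Rpl3l is lower in the immature-B-like and dividing classes than in the pro-B-like cells of each library.

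From pro-B-like to pre-B-like cells, members moved in both directions. Of 75 tested 5 were higher and 11 lower, beside 14.8% and 14.3% of 3235 genes (29.1% in either direction), shares close to those of genes at large for the lower calls and below them for the higher ones. Rps24, a small-subunit protein with spliced isoforms, fell from 6925, 4423, 4634, 4537 and 4974 CPM to 5424, 2898, 2774, 3227 and 2794 (-0.58 ± 0.07, edgeR adjusted p = 9.7e-08). Without young replicate 1 the 2 stages do not overlap. Rpl15 (-0.46 ± 0.08), Rps19 (-0.37 ± 0.06) and Rpl36a (-0.33 ± 0.09) fell in 5 of 5 libraries as well. Members also called lower were Rpl39, Rpl24, Rpl22, Rps21, Rpl23 and Rps27a, the last in 4 of 5 libraries; Rpl22 is known for its part in lymphocyte development.

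Rpl28 rose from 2356, 1964, 1637, 2004 and 2066 to 3158, 2106, 1936, 2290 and 2531 CPM (0.28 ± 0.08, adjusted p = 0.0063). Rpl37 (0.25 ± 0.07), Rpl19 (0.24 ± 0.07) and Rps27 (0.17 ± 0.06) rose in 5 of 5 libraries and Rpl12 in 4 of 5. The call of Rps27 was lost under 12 of the 15 alternatives. DESeq2 called 0 of the 5 higher (7 lower), whereas Rps24, Rpl15 and Rps19 passed under each alternative. Mitochondrially encoded genes moved with the stage: 10 of 12 rose, with mt-Nd1 at 0.68 ± 0.08, and their part in the members' result was not tested beyond the share without mitochondrial UMIs, which kept its direction. Fau, whose product carries the small-subunit protein eS30, rose by 0.38 ± 0.07, and the stalk proteins Rplp1 (-0.36 ± 0.08) and Rplp0 (-0.39 ± 0.09) fell. Of 18 ribosome biogenesis genes tested 1 rose (Nop56, 0.74 ± 0.21), and of 37 translation factors 4 rose and 1 fell, with Eif5 at 1.16 ± 0.17. Genes of both lists were not left out of the clustering.

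**Figure D4:**
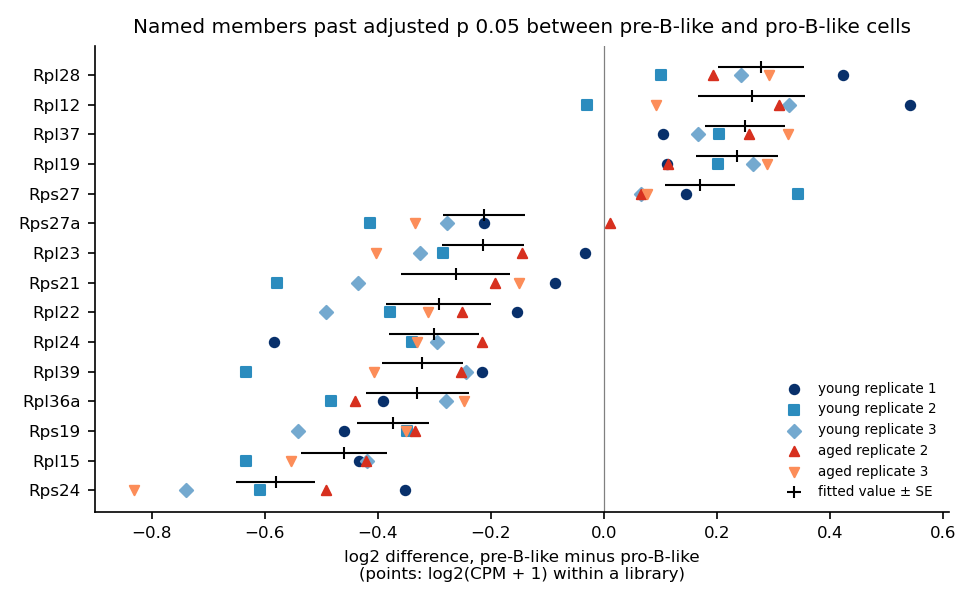
Members named in the text that were past adjusted p 0.05 between pre-B-like and pro-B-like cells: coloured points are the log2 difference within each library (x axis) and black bars the fitted log2 fold change with its SE. The points of Rps24 and Rpl15 all lie below 0 and those of Rpl28 all above it, while Rpl12 and Rps27a each have 1 library on the other side.

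From pre-B-like to immature-B-like cells 5 of 74 members rose and 0 fell, beside 4.33% of 2819 genes in each direction (8.66% in all). Rps2 went from 1830, 1093, 1280, 1381 and 1294 to 2097, 1530, 1881, 1638 and 1427 CPM (0.34 ± 0.09, edgeR adjusted p = 0.0071), overlapping between libraries but higher within each. Rpl39 (0.24 ± 0.07) and Rps29 (0.20 ± 0.06) were higher in 5 of 5 libraries and Rpl10 (0.21 ± 0.07) in 4 of 5. The lower values of smallest p, Rps27, Rpl37a and Rpl36, did not pass, and all 3 turned sign when cells were clustered at a coarser resolution or with the members. Rplp0, Rplp2 and Rpsa rose as well, by 0.32 ± 0.08, 0.29 ± 0.07 and 0.28 ± 0.08. None of the 5 calls was kept when the cells were clustered with the members, and the count ran from 1 to 11 on leaving out a library, 11 without young replicate 1.

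Of the paralogs, Rpl3l (chr17:24727820-24736143, plus strand) had the largest fold change between dividing and non-dividing cells. It held 275 UMIs in 204 cells, at 122, 69.4, 136, 170 and 118 CPM in pro-B-like cells, 218, 40.5, 85.6, 124 and 48.8 in pre-B-like cells and 11.2, 5.58, 10.1, 0 and 16.9 in immature-B-like cells, below both earlier stages in each library. The 0 of aged replicate 2 allows up to 38.7 CPM (3 counts, counting error only), and the step to immature-B-like cells was not tested because of the low counts. In dividing cells it stood at 8.34, 12.3, 45.0, 21.3 and 5.13 CPM, from 1 to 27 UMIs a library (edgeR adjusted p = 1.0e-06 against non-dividing cells). The immature-B-like cells, which are non-dividing, were as low (0 to 16.9 CPM), and the part of stage in this fold change was not tested. Within pre-B-like cells Rpl3l was uneven. A cluster of 156 cells, mostly of aged replicate 2, held 70 of its UMIs at 173 CPM, and a cluster of 185 cells held 16 at 35.9. Its namesake Rpl3 moved the other way between non-dividing and dividing cells, from 1687, 1890, 1689, 1957 and 1735 to 2253, 2819, 2153, 2607 and 2485 (0.55 ± 0.08). Rpl3l lies on the same strand as Rps2 (chr17:24718116-24721929), with 5890 bases between them, and the 2 neighbours moved in opposite directions between dividing and non-dividing cells.

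Rpl6l set the libraries apart and not the cells. Its share of the UMIs of the pair with Rpl6 was 15.8%, 36.4%, 37.4%, 33.9% and 31.0% in non-dividing cells and 16.6%, 36.0%, 37.5%, 32.9% and 29.0% in dividing cells. In young replicate 1 it was at most 18.1% in each class with 5 or more cells, and every B-lineage class of the other libraries was at 26.5% or above. Rpl10l was listed with 7 UMIs, 4 of them in 1 pre-B-like cluster, beside Rpl10, which is X-linked and was called higher with division (0.28 ± 0.07), a call lost on thinning to 1000 UMIs (-0.00053, adjusted p = 1.00). Rpl39l was listed with 4 UMIs, beside Rpl39, which rose (0.56 ± 0.07, and 0.29 thinned).

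Young replicate 1 differed from the other 4 libraries by amounts that varied between members, given here as a description with no test. In non-dividing cells it lay above the range of the other libraries for 60 of 74 members, within it for 5 and below it for 9, beside 26.7% of 2551 genes above and 42.3% below among those of at least 50 CPM in each of the other libraries. The widest log2 ratios to the other libraries' median were Rps12 (1.03), Rpl36a (0.79), Rps27l (0.75), Rps20 (0.75) and Rps27a (0.72) above, and Rpl6l (-1.81), Rps28 (-0.68), Rps27 (-0.55), Rpl4 (-0.37) and Rps29 (-0.32) below. Dividing cells gave the same picture, with 57 above and 6 below (beside 21.8% and 38.1% of 2196 genes), and the 2 sets of ratios had a Spearman rho of 0.92 over 74 genes measured in the same library. Over all kept cells this library was the deepest, but it was not within these classes. Its median UMIs per cell were 2328 in non-dividing cells, beside 2666, 1847, 2757 and 1790.5 in the other libraries. In dividing cells its median was 4186, beside 8419.5, 3333, 6889 and 4334.5. The part of depth in these ratios was not tested.

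**Figure D5:**
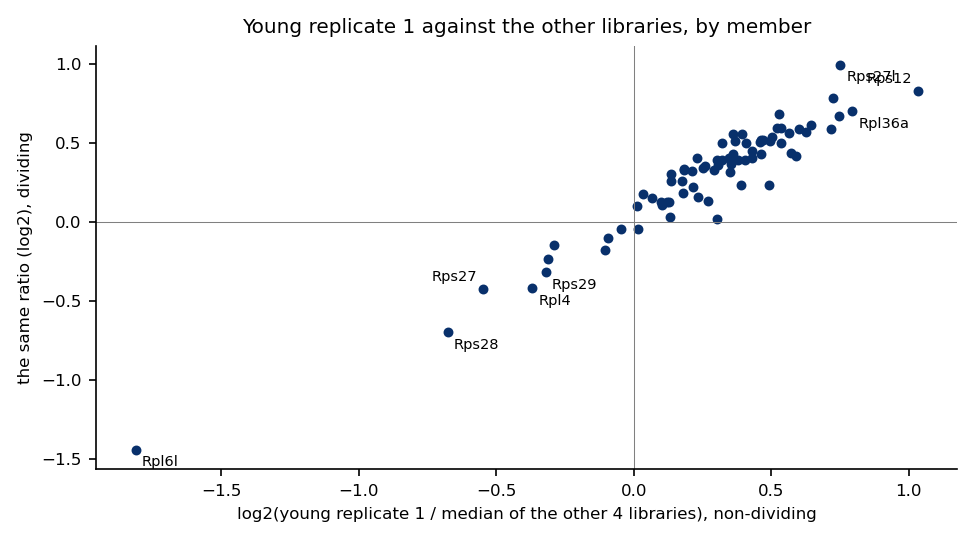
Log2 ratio of young replicate 1 to the median of the other 4 libraries for each member, in non-dividing (x axis) and dividing (y axis) B-lineage cells. Points spread along a line from Rpl6l at -1.81 to Rps12 at 1.03 (non-dividing values), so the order of members was similar in both kinds of cell. It was not the same for every member: 9 lay below the range of the other libraries in non-dividing cells and 6 in dividing cells.

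No member passed the test between aged and young cells. In non-dividing cells 0 of 75 members passed, beside 0% of 6438 genes, 0 members had an unadjusted p under 0.05 and DESeq2 called 0. The values were lower in aged cells for 63 and higher for 12, with a median of -0.14 that became -0.012 without young replicate 1. In dividing cells 0 of 74 passed, beside 0.0265% of 3769 genes, with a median of -0.11 that became 0.094 without that library. The difference of the age effect between dividing and non-dividing cells passed for 0 of 75 members.

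The share of UMIs in non-dividing cells was 20.6% ± 2.60 (SD, n = 3) in young and 19.9% ± 0.78 (n = 2) in aged libraries, with an exact permutation p of 0.90, two-sided, where 0.10 is the smallest possible. The members of smallest p were Rps28 at 1948, 2868 and 2863 CPM in young and 3355 and 3789 in aged cells (0.42 ± 0.26, edgeR adjusted p = 1.00), Rpl3l (0.42 ± 0.39) and Rps29 (0.25 ± 0.24) among higher values, and Rps12 (-0.50 ± 0.34), Rps15 (-0.34 ± 0.29) and Rps20 (-0.35 ± 0.30) among lower ones. In 5 members (Rpl27, Rpl38, Rps27, Rps28 and Rps29) both aged libraries lay above all 3 young ones and in 0 below them, beside 11.1% and 5.47% of the 6438 genes tested. The count rested on young replicate 1: without it 20 members were above and 1 below, beside 18.0% and 11.1% of genes. These include 4 of the 9 members that were low in young replicate 1. In dividing cells 6 members were above the young range and 0 below, beside 11.4% and 6.42% of 3769 genes (24 and 0 without young replicate 1, beside 16.8% and 14.5%). Rps28, Rps29, Rps27 and Rpl38 were among the 6, with Rps28 at 1994, 2708 and 2993 against 3472 and 3820.

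Outside the B lineage, where 95 cells stayed unnamed, young replicate 1 alone held more than a few monocyte-like, neutrophil-like or basophil-like cells. There monocyte-like cells held 31.8% of UMIs in members (65 cells, exact binomial 95% interval 31.7 to 31.9, which covers counting error only), neutrophil-like cells 31.8% (17 cells, 31.6 to 32.0) and basophil-like cells 32.0% (11 cells, 31.7 to 32.3), close to the Nrgn-high S-phase cells of that library (31.1%) and above its non-dividing B-lineage cells (23.6%). No test was possible with 1 library. The few such cells elsewhere were lower: 2 neutrophil-like cells of young replicate 3 held 9.20% and 1 of aged replicate 3 3.36%, 1 and 3 monocyte-like cells of the same libraries 13.2% and 25.2%, and 1 basophil-like cell of aged replicate 3 19.4%. In young replicate 1, against its non-dividing B-lineage cells, Rps27 was low in the monocyte-like cells (3215 CPM) and Rps2 (5111) and Rps12 (5262) high. For the same genes in that order, neutrophil-like cells held 3017, 5331 and 5898 CPM. Basophil-like cells held 4185, 4263 and 4751 and the unnamed cells 3564, 4937 and 5032, so the pattern was shared. The monocyte-like cells also carried 16 of 16 S-phase and 18 of 18 G2/M markers in at least 10% of cells. The neutrophil-like cells carried the same numbers, and the basophil-like cells 13 of 16 and 12 of 18. Median UMIs per cell of these 3 classes in young replicate 1 were 12164, 19047 and 5515. The part of markers and depth in the shares was not tested.

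The endothelial-like cells could be tested in 2 libraries, with 7 cells in young replicate 1 and 6 in aged replicate 3. Members took 24.0% and 14.6% of their summed UMIs, against 23.6% and 20.5% in the non-dividing B-lineage cells of the same libraries. As the median over cells the endothelial-like share was lower in both libraries, at 16.44% and 14.04% against 23.64% and 19.63%. The near equality in young replicate 1 thus held for the sum and not for the median cell. None of 75 members passed (edgeR; 0 also at an unadjusted p under 0.05), beside 11.4% of 3324 genes (6.92% higher and 4.48% lower), and 69 of 75 values were lower with a median of -0.45 against -0.35 for all genes tested. DESeq2 called 0 as well. The smallest p-values belonged to Rps13 (-1.14 ± 0.59), Rps9 (-1.13 ± 0.59) and Rps24 (-0.89 ± 0.58) below and to Rps2 (0.40 ± 0.53), Rpl14 (0.19 ± 0.51) and Rpl3 (0.19 ± 0.51) above. Rps2 stood at 3996 and 1437 CPM in these cells, a gap between the 2 libraries wider than that between the classes. B-lineage markers were present too, 9 of 10 in at least 10% of the endothelial-like cells and at 1360 CPM in sum, and their part in these values was not tested.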

How the data were processed

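The data were UMI counts per gene and cell barcode from droplet 3′ libraries of sorted bone marrow cells, deposited by the authors without normalization. Cell Ranger, R 3.5.2, edgeR 3.24.3, DESeq2 1.22.2 and the build mm10 are named, per the submitters' processing notes; the labels do not say how barcodes were chosen. The 3384 barcodes were filtered to 2116 with at least 500 genes, at least 1000 UMIs and at most 10% mitochondrial UMIs. The libraries held 935656 to 5900751 UMIs in all deposited barcodes.

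Members and part of their copies were left out of the clustering (Python 3.11.15, scanpy 1.11.5, 2000 variable genes, 30 components, 15 neighbours, leidenalg 0.10.2 at resolution 0.8, subdivided at resolution 2 where a cluster was mixed). Classes were named from fixed marker lists, a marker counting when it had a UMI in at least 10% of cells. Scrublet marked 58 doublets, which stayed in and were left out as an alternative.

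Counts were summed per library and class, for classes of at least 10 cells (5 for endothelial-like and Nrgn-high cells), and tested in R 4.3.3 with edgeR 4.0.16 (TMM, filterByExpr, quasi-likelihood F test, Benjamini-Hochberg over all genes tested). Library was a block within libraries, and no block was used between ages. SEs of log2 fold changes were taken as the absolute value over the root of F. The scripts were tested on simulated counts. Single values per library were compared by exact permutation. DESeq2 1.42.0 was an alternative, with other scalings, no filter, thinning, other clusterings and each library left out. Neutrophil-like cells reached 5 cells in 1 library and were not tested.

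The members and lists were chosen with earlier results of these data known. Named members were the 5 of largest fold change in each direction that passed adjusted p 0.05 with all libraries in that direction, filled to 3 by smallest p, plus those of highest and lowest level and the paralogs with their namesakes; other members called in short lists were named after their values were seen. Start windows came from RefSeq tables of GRCm38.p6, the assembly that mm10 is built on. Some members that the rule would name are not reported here.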

Additional observations from a re-analysis of the deposited data

How the results depend on the processing

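Of 1237 values recomputed under alternatives, 1076 kept their direction and side of the threshold, or stayed within the margin set for counts and medians. For dividing against non-dividing cells (32 members higher, 4 lower, median 0.14), members higher numbered 18 with scaling to the members (chosen after seeing the data), 16 with no filter on low counts and 8 thinned to 1000 UMIs. Members lower numbered 11 with total UMIs, 8 scaled to non-members, 17 scaled to members, 2 with no filter, 2 with DESeq2 and 16 thinned. The median was -0.0055 scaled to members and -0.039 thinned. Scaling to non-members moved the median of all genes to -0.12. Leaving out a library gave 2 to 6 lower (2 without young replicate 2 and 2 without aged replicate 3). For pre-B-like against pro-B-like cells (5 higher, 11 lower), members higher numbered 3 with total UMIs, 2 scaled to non-members, 9 scaled to members, 0 with DESeq2, 3 when clustered with the members, 2 at resolution 0.5 and 0 to 5 on leaving out a library (0 without aged replicate 3, 2 without young replicate 3, 3 without aged replicate 2). Members lower numbered 18 with total UMIs, 18 scaled to non-members, 4 with no filter, 7 with DESeq2 and 7 to 16 without a library (7 without young replicate 3 or aged replicate 3). The median was -0.12 scaled to non-members and 0.018 with no filter. For immature-B-like against pre-B-like cells (5 higher, 0 lower), members higher numbered 2 scaled to members, 0 with no filter, 1 with DESeq2, 1 thinned, 0 when clustered with the members and 1 to 11 without a library (11 without young replicate 1, 1 without young replicates 2 or 3). Members lower numbered 1 scaled to members and 1 with no filter.

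For G2/M against S phase (0 higher, 73 lower), scaling to members gave 8 higher and 8 lower and thinning 30 lower. The median was -0.53 with total UMIs (median of all genes 0.20), -0.66 scaled to non-members, -0.024 scaled to members, -0.51 thinned and -0.98 when clustered with the members. For Nrgn-high against other S-phase cells (60 higher, 0 lower, median 0.40), members higher numbered 11 scaled to members and 14 thinned, and 8 were lower scaled to members. The median was 0.46 with RLE scaling, 0.49 scaled to non-members, -0.0083 scaled to members, 0.59 with no filter, 0.46 with DESeq2, 0.25 thinned and 0.38 to 0.45 without a library. For endothelial-like cells 1 member was lower when thinned, and the median was -0.030 scaled to members and -1.004 with no filter. Scaling to the members sets their sum equal by construction, and the cause of the other changes was not tested.

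The share of UMIs in dividing minus non-dividing cells was -1.04 points as a median over cells and -3.64 in cells of 2000 to 4000 UMIs (chosen after seeing the data), the mean of young replicates 1 and 3 and aged replicate 3, since young replicate 2 (4 dividing cells, -5.87) and aged replicate 2 (1 cell, 0.60) fell under 5 cells. The same cells turned pre-B-like minus pro-B-like to 0.31 (4 libraries, 2 on each side of 0) and took Nrgn-high minus other S phase from 5.80 to 3.44 (young replicate 1 only). Aged minus young turned from -0.70 to 0.79 points in non-dividing cells without young replicate 1 (range -1.58 to 0.79 over libraries left out) and in dividing cells from -0.24 to 0.44 as a median over cells, to 1.78 without young replicate 1 and 0.41 without aged replicate 2 (range -1.92 to 1.78).

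Signs that turned among named members, none of them past the threshold, were Rps27 (0.27 clustered with the members, 0.12 at resolution 0.5), Rpl37a (0.072 and 0.15) and Rpl36 (0.12 and 0.12, and -0.11 to 0.0012 without a library, the latter without young replicate 1) in immature-B-like cells. In Nrgn-high cells Rps27 turned to 0.038 with RLE, 0.072 scaled to non-members, 0.20 with no filter, 0.040 with DESeq2, 0.010 without doublets and -0.11 (aged replicate 2) to 0.063 without a library, above 0 for each of the other 4. In endothelial-like cells with no filter Rps2 turned to -0.15, Rpl14 to -0.35 and Rpl3 to -0.36 (-0.27 thinned). With age, Rps27a in dividing cells turned to 0.10 with the replicate block and 0.092 without young replicate 1 (down to -0.60 without young replicate 3), Rpl3l in non-dividing cells to -0.050 without aged replicate 2 (up to 0.81 without young replicate 3), and the difference of the age effect for Rpl36 to 0.014 thinned. The replicate block pairs only numbers 2 and 3, which the labels do not tie to a shared animal or day: it left 0 members called in either class, with medians of -0.011 in non-dividing and 0.089 in dividing cells. Leaving out a library was not possible for G2/M and endothelial-like cells, which rest on 2 libraries. Low counts limit Rpl3l, Rpl10l, Rpl39l and Rps27l.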
